A study of Homo sapiens with 12 samples.

Results

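The 32 genes described here encode the enzymes of glycolysis, regulators of glucose use and well known targets of the hypoxia response, and they were followed through HaCaT cells with and without the vitamin D receptor and with and without its hormone. They were looked up by symbol. Of the 32, 30 were among the 16271 genes of the count table and 29 passed the filter on low counts, out of 14676 genes tested. ALDOC was counted but set aside by the filter, and EGLN1 and CA9 are not analysed here.

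HaCaT is an immortalised line of human keratinocytes, the cells of the epidermis. The 4 groups, with 3 libraries of total RNA each, were VDR KO cells treated for 8 h with 1,25(OH)2D3, VDR KO cells without treatment, wild type (WT) cells treated for 8 h with the same hormone, and WT cells without treatment. VDR is the nuclear receptor for vitamin D, and 1,25(OH)2D3 is the hormone that binds it. Neither the labels nor the files give the dose, the vehicle, the oxygen level, the kind of edit or the number of clones behind the KO cells. A difference between clones and the effect of the edit cannot be told apart. Whether the 3 libraries of a group are separate cultures is not stated in the labels. The p-values below rest on the spread among libraries within groups, which may therefore be technical. This spread was estimated over all 4 groups together, except where the compared groups alone are named.

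Glycolysis splits glucose into pyruvate in a chain of enzyme reactions in the cytosol. Glucose enters through transporters such as GLUT1, is trapped by hexokinase, passes the committed step at phosphofructokinase and leaves as pyruvate, which is either oxidised in mitochondria or turned into lactate. When oxygen is scarce, prolyl hydroxylases of the EGLN family stop marking the HIF alpha proteins for destruction through VHL. HIF alpha then pairs with ARNT and binds short DNA elements with the core ACGTG or GCGTG beside many of the genes described here. Keratinocytes live in an epidermis with no vessels of its own and are known for a high rate of glycolysis.

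Depth, as total counts (M, 1e6), was 11.83 to 12.77 M in treated KO cells, 12.61 to 15.99 M in untreated KO cells, 13.13 to 13.89 M in treated WT cells and 11.49 to 12.21 M in untreated WT cells. KO and WT libraries parted along the first principal component (75.0% of the variance). Untreated WT replicate 3 stood apart from its group there (−32.5, against −54.3 and −55.7 for the other untreated WT libraries). CYP24A1, the enzyme that degrades the hormone and the classic target of VDR, was at 12.2 ± 0.232 CPM in treated KO cells and 16.9 ± 4.83 CPM in untreated KO cells, against 1676 ± 61.1 CPM in treated WT cells and 48.0 ± 2.88 CPM in untreated WT cells. CPM are counts per 1e6 counts of the library, scaled between libraries, and values after ± beside CPM are SDs over 3 libraries. VDR RNA itself was still counted in KO cells, at 82.8 ± 3.02 CPM treated and 77.6 ± 4.07 CPM untreated, against 71.0 ± 3.62 and 103.3 ± 3.81 CPM in treated and untreated WT cells, so its level does not check the label. Summed CPM of 4 keratinocyte markers were 545.6 to 631.3 in treated KO, 597.4 to 615.3 in untreated KO, 947.7 to 960.6 in treated WT and 1120 to 1213 in untreated WT libraries. A melanocyte list, of which 2 of 3 genes were in the table, summed to 19.5 to 21.5, 15.1 to 18.7, 6.68 to 9.36 and 9.97 to 10.9 CPM in the same order. Endothelial, leukocyte and fibroblast lists had 1 of 3 genes each in the table, at 1.73 to 17.4 CPM over all libraries. These marker levels move with genotype, as many of the genes below do, and their part in the results was not tested. In bulk RNA, fewer cells that express a gene and less RNA per cell cannot be told apart.

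The first question was how the genes differed between KO and WT cells. Genotype parted most of them, in both directions and without a common one. VEGFA, HK2, PFKFB3 and PFKP were lower in KO cells, and EGLN3, PFKFB4 and PDK1 were higher, with or without hormone. In several steps of the pathway, 1 gene of a family was lower in KO cells while its sister gene was higher or was not called. Without hormone, 18 of the 29 genes were called in edgeR's quasi-likelihood test at a Benjamini-Hochberg adjusted p below 0.05, 6 higher and 12 lower in KO. With hormone, 21 were called, 8 higher and 13 lower. The background is broad: of all 14676 genes, 69.7% were called untreated (35.5% higher, 34.2% lower) and 75.9% treated (38.4% higher, 37.4% lower), beside 62.1% of the 29 genes untreated (20.7% higher, 41.4% lower) and 72.4% treated (27.6% higher, 44.8% lower). The median size of the log2 fold change was 0.30 for the 29 genes and 0.47 for all genes untreated, and 0.53 against 0.60 treated. Groups of 3 libraries did not overlap for 22 of the 29 genes in each of the genotype comparisons (69.1% of all genes untreated, 80.9% treated).

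The untreated and treated comparisons use different libraries. Of the 18 genes called untreated and the 21 called treated, 14 were called in the same direction in both, 5 higher and 9 lower in KO, which is 77.8% and 66.7% of each list. Over all genes the same shares were 82.4% and 75.7%. GPI was the 1 gene called in opposite directions. Scaling by library size alone put the median log2 fold change of all genes at 0.13 in both comparisons, against 0.01 untreated and 0.02 treated with the scaling used here. The split of the 29 genes then was 9 higher and 8 lower untreated, and 10 higher and 12 lower treated, and no called gene changed its direction.

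**Figure D1:**
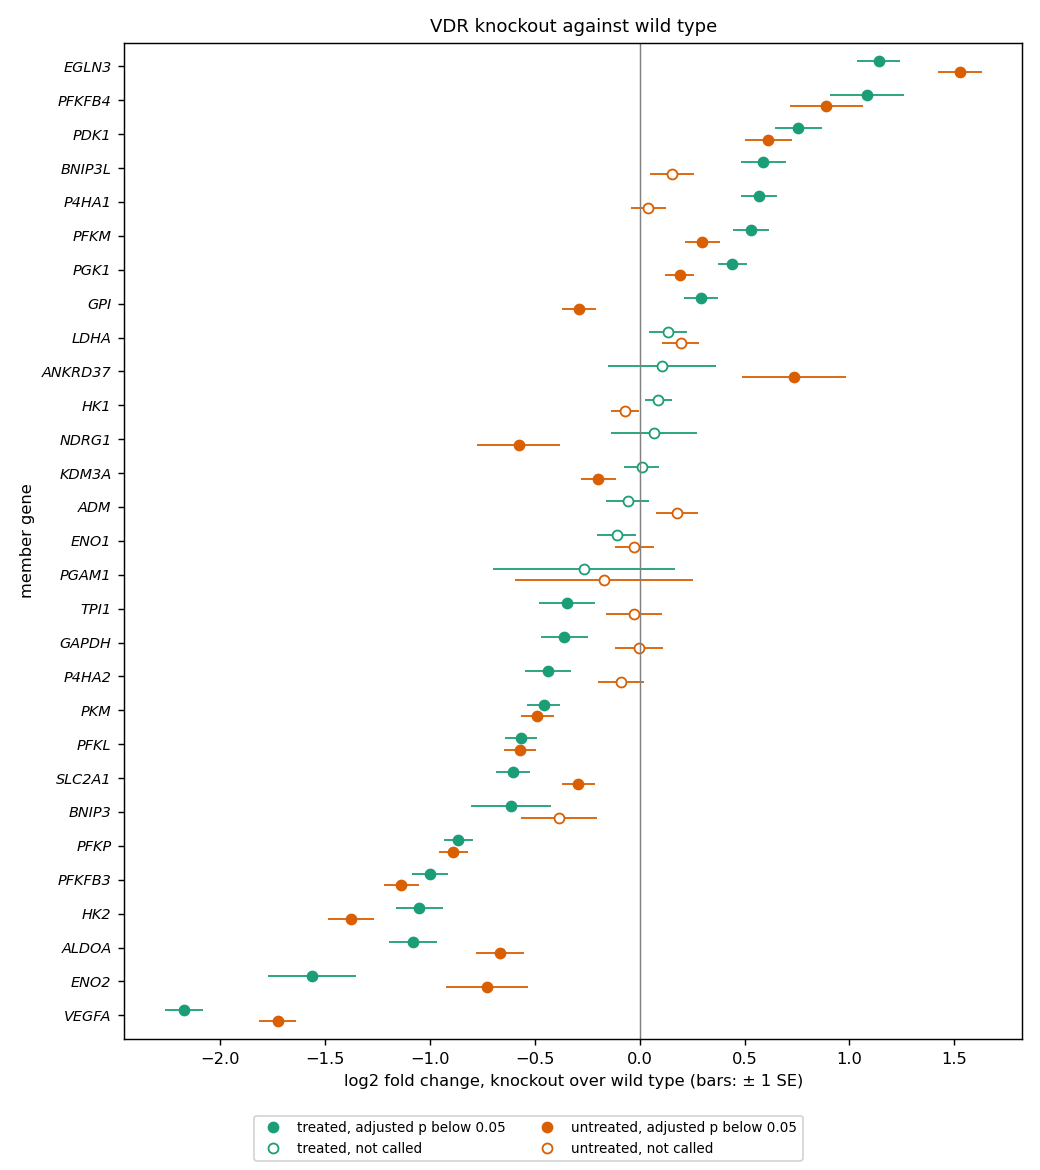
Log2 fold change, KO over WT, of the 29 tested genes with bars of 1 SE, in hormone-treated cells (upper row of each gene) and untreated cells (lower row), sorted by the treated value. Filled points have an adjusted p below 0.05. VEGFA lies at −2.17 and −1.73, and EGLN3 at 1.14 and 1.53, with the other genes between them.

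Glucose enters keratinocytes mainly through GLUT1, the product of SLC2A1. SLC2A1 was at 95.2, 94.0 and 83.6 CPM in treated KO cells and 109, 111 and 102 CPM in untreated KO cells, against 141, 131 and 143 CPM in treated WT cells and 137, 140 and 117 CPM in untreated WT cells. All 6 KO libraries lay below all 6 WT libraries. The fall in KO was −0.60 ± 0.08 (log2 fold change ± SE, adjusted p = 3.08e-06) treated and −0.29 ± 0.08 (adjusted p = 0.00378) untreated, where scaling by library size alone ended the call (−0.17, adjusted p = 0.067).

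Hexokinases phosphorylate glucose so that it stays in the cell. HK1, the form found in most tissues, was at 80.7, 83.1 and 78.3 CPM in treated KO and 78.8, 79.1 and 77.5 CPM in untreated KO libraries, against 75.0, 78.9 and 73.7 CPM in treated WT and 87.3, 79.1 and 80.5 CPM in untreated WT libraries. HK2, the inducible form and a HIF target (chromosome 2, 74833981 to 74893359, all gene positions from GENCODE v29 on GRCh38), was at 11.3, 13.3 and 14.8 CPM in treated KO and 11.6, 11.1 and 12.1 CPM in untreated KO, against 26.5, 26.8 and 28.4 CPM in treated WT and 32.5, 31.5 and 26.5 CPM in untreated WT libraries. HK2 was thus low in every KO library and high in every WT library, with no overlap, while the ranges of HK1 overlapped over the 12 libraries. HK2 was 2.07-fold lower in KO with hormone (−1.05 ± 0.11, adjusted p = 1.89e-07) and 2.60-fold lower without (−1.38 ± 0.11, adjusted p = 1.2e-08). HK1 was not called (0.09 ± 0.07, adjusted p = 0.229 treated, and −0.07 ± 0.07, adjusted p = 0.361 untreated), but with library size alone it was called higher treated (0.20, adjusted p = 0.0129). Per kilobase of annotated exon, HK1 stood above HK2 in each group. In untreated cells HK1 averaged 12.5 CPM per kb in KO and 13.1 CPM per kb in WT, and HK2 averaged 1.92 and 4.98 CPM per kb.

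Phosphofructokinase commits sugar to glycolysis and exists as a platelet (PFKP), a liver (PFKL) and a muscle (PFKM) type, which join into mixed tetramers. PFKP was at 78.9, 76.8 and 81.7 CPM in treated KO and 77.8, 87.4 and 80.4 CPM in untreated KO, against 148, 144 and 141 CPM in treated WT and 155, 153 and 146 CPM in untreated WT libraries. Its KO libraries were all far below its WT libraries, a fall of −0.86 ± 0.07 treated (adjusted p = 4.62e-09) and −0.89 ± 0.07 untreated (adjusted p = 5.41e-09). PFKL fell with it, by the same −0.57 ± 0.08 in both (adjusted p = 3.02e-06 treated, 3.76e-06 untreated). PFKM moved the other way: it was at 50.7, 48.4 and 53.5 CPM in treated KO and 47.4, 55.3 and 53.9 CPM in untreated KO, against 37.7, 34.3 and 33.7 CPM in treated WT and 40.8, 40.7 and 45.6 CPM in untreated WT. The KO libraries lay above the WT libraries in each pair of groups, by 0.53 ± 0.08 treated (adjusted p = 2.28e-05) and 0.30 ± 0.08 untreated (adjusted p = 0.00442). Per kilobase, PFKP, PFKL and PFKM averaged 16.4, 7.64 and 6.95 CPM per kb in treated KO and 29.8, 11.3 and 4.81 CPM per kb in treated WT cells, so the order of the 3 genes was the same in both. Of the exon bases of PFKM, 8.58% overlap SENP1 on the other strand, and no source used here says whether counting used the strand.

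The level of fructose 2,6-bisphosphate, the strongest activator of phosphofructokinase, is set by the PFKFB enzymes, both of which named here are HIF targets. PFKFB3 (chromosome 10, 6144934 to 6254644), which mainly makes the activator, was at 85.9, 82.5 and 70.3 CPM in treated KO and 80.2, 87.4 and 83.1 CPM in untreated KO, against 154, 165 and 158 CPM in treated WT and 190, 195 and 166 CPM in untreated WT libraries. PFKFB4 (chromosome 3, 48517684 to 48562015), a lower expressed relative, was at 7.68, 5.91 and 8.55 CPM in treated KO and 7.60, 7.73 and 8.23 CPM in untreated KO, against 3.94, 3.20 and 3.30 CPM in treated WT and 3.88, 3.56 and 5.24 CPM in untreated WT. For both genes KO and WT libraries did not overlap, and the genes went opposite ways. PFKFB3 was 2.00-fold lower in KO treated (−1.0 ± 0.08, adjusted p = 1.31e-08) and 2.20-fold lower untreated (−1.14 ± 0.08, adjusted p = 4.5e-09). PFKFB4 was 2.12-fold higher treated (1.08 ± 0.18, adjusted p = 2.95e-05) and 1.85-fold higher untreated (0.89 ± 0.17, adjusted p = 0.000215).

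Aldolase cleaves the 6-carbon sugar, and enolase makes phosphoenolpyruvate near the end of the chain. ALDOA was at 181, 182 and 179 CPM in treated KO and 208, 216 and 212 CPM in untreated KO, against 376, 384 and 386 CPM in treated WT and 390, 365 and 252 CPM in untreated WT libraries. The KO libraries were all lower, but untreated WT replicate 3, at 252 CPM, lay far below its group. The fall was −1.08 ± 0.11 treated (2.12-fold, adjusted p = 2.44e-07) and −0.67 ± 0.11 untreated (adjusted p = 6.61e-05). ALDOC, its sister gene, had 2, 1 and 3 counts in treated KO and 7, 3 and 8 in untreated KO libraries, against 6, 7 and 7 in treated WT and 7, 9 and 10 in untreated WT libraries, too few to be tested.

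ENO2, named for neurons and a HIF target in other cells, is a minor enolase here. It was at 1.43, 1.31 and 1.11 CPM in treated KO and 2.00, 1.88 and 2.22 CPM in untreated KO, against 3.78, 3.75 and 3.91 CPM in treated WT and 3.36, 4.02 and 2.79 CPM in untreated WT libraries. Every KO library lay below every WT library. ENO2 was 2.95-fold lower in KO with hormone (−1.56 ± 0.21, adjusted p = 3.2e-06) and lower by −0.73 ± 0.20 without (adjusted p = 0.00326). The main enolase ENO1 was not called (−0.11 ± 0.09, adjusted p = 0.295 treated, and −0.03 ± 0.09, adjusted p = 0.825 untreated). Per kilobase, ENO1 averaged 72.8 and 84.1 CPM per kb in treated and untreated KO and 78.5 and 85.6 CPM per kb in treated and untreated WT cells, while ENO2 averaged 0.300, 0.475, 0.890 and 0.792 CPM per kb in the same groups.

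Among the remaining enzymes, PKM, the pyruvate kinase, was lower in KO by −0.46 ± 0.08 treated (adjusted p = 5.43e-05) and −0.49 ± 0.08 untreated (adjusted p = 3.58e-05). GAPDH, often used as a reference gene, was lower in KO with hormone (−0.36 ± 0.11, adjusted p = 0.00865), at 319, 323 and 361 CPM in treated KO against 425, 435 and 426 CPM in treated WT libraries. Without hormone GAPDH was at 416, 491 and 441 CPM in KO and 501, 500 and 349 CPM in WT libraries, which overlap (−0.00 ± 0.11, adjusted p = 0.979). TPI1, which interconverts the triose sugars, was likewise lower treated (−0.35 ± 0.13, adjusted p = 0.0306), a call lost with library size alone (−0.24, adjusted p = 0.0937) and without any 1 of treated KO replicate 1 or 2 or treated WT replicate 2 or 3 (adjusted p 0.0659 to 0.0937), and not called untreated (−0.03 ± 0.13, adjusted p = 0.864). Without untreated WT replicate 3, TPI1 was called lower untreated too (−0.21, adjusted p = 0.0155). Neither GAPDH nor TPI1 was called in the difference of responses given below, though TPI1 was without untreated WT replicate 1 (−0.49, adjusted p = 0.0497). PGK1 went the other way, at 0.44 ± 0.07 treated (adjusted p = 1.99e-05) and 0.19 ± 0.07 untreated (adjusted p = 0.0203). Untreated, PGK1 was at 0.32 with library size alone (adjusted p = 0.000516), and its call was lost without untreated KO replicate 1 or untreated WT replicate 2 or 3 (adjusted p 0.0538 to 0.0784). LDHA, which turns pyruvate into lactate, was not called (0.14 ± 0.09, adjusted p = 0.174 treated, and 0.20 ± 0.09, adjusted p = 0.0585 untreated). It was called higher with library size alone (0.24, adjusted p = 0.0155 treated, and 0.32, adjusted p = 0.00281 untreated), and untreated also without untreated WT replicate 1 (0.27, adjusted p = 0.0206) or 2 (0.23, adjusted p = 0.0489). PGAM1 was not called either and had the largest SEs of the 29 genes, 0.42 to 0.61: it was at 50.9, 52.1 and 111 CPM in treated KO and 104, 125 and 83.5 CPM in untreated KO, against 130, 73.6 and 53.5 CPM in treated WT and 133, 139 and 79.1 CPM in untreated WT. Of the 30 genes, 11 have named pseudogenes in GENCODE v29, with 62 for GAPDH, 39 for BNIP3 and 13 for PGAM1. Copies of PKM (2), TPI1 (2), ALDOA (1) and ENO1 (1) were themselves in the count table. Reads may be shared with such copies, so values of genes that have them are uncertain. Of 15 tested genes for enzymes and glucose entry, 3 were higher and 9 lower in KO treated, and 2 were higher and 8 lower untreated. Of all genes, 38.4% were higher and 37.4% lower treated, and 35.5% and 34.2% untreated.

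**Figure D2:**
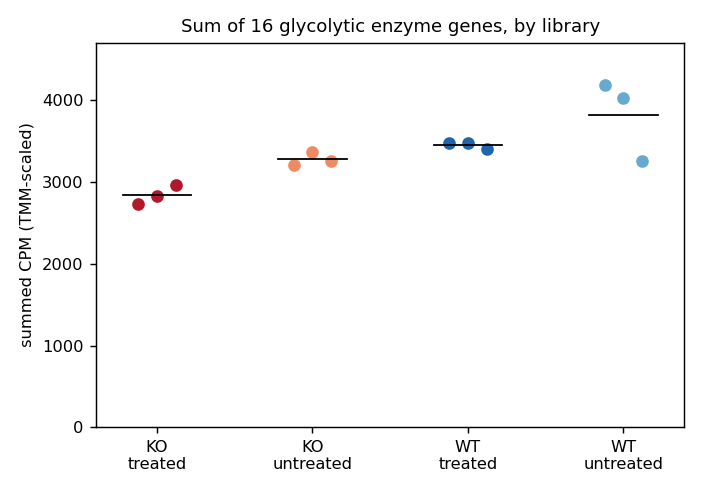
Summed CPM of 16 glycolytic enzyme genes in each library (points) with the group mean (line), for treated KO, untreated KO, treated WT and untreated WT cells. The KO sums of 2725 to 2956 treated and 3203 to 3370 untreated lie beside WT sums of 3403 to 3474 treated and 3250 to 4181 untreated, where untreated WT replicate 3 is the library at 3250.

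The sum over 16 enzyme genes was 2725, 2823 and 2956 CPM in treated KO and 3203, 3370 and 3257 CPM in untreated KO, against 3474, 3470 and 3403 CPM in treated WT and 4181, 4022 and 3250 CPM in untreated WT libraries. Treated KO libraries were lower than all others. In untreated WT cells the third library lay below the other two by more than the whole range of any other group, and within the range of untreated KO libraries.

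At the branch from glycolysis to mitochondria, PDK1, a kinase that shuts pyruvate dehydrogenase off and a HIF target, was at 53.5, 48.8 and 48.3 CPM in treated KO and 44.8, 49.7 and 46.7 CPM in untreated KO, against 29.9, 28.3 and 31.0 CPM in treated WT and 26.7, 27.2 and 38.3 CPM in untreated WT. Each KO library exceeded each WT library. PDK1 was higher by 0.76 ± 0.11 treated (adjusted p = 1.01e-05) and 0.61 ± 0.11 untreated (adjusted p = 0.000118). Of the 4 genes for regulators and the fate of pyruvate, PFKFB3, PFKFB4, PDK1 and LDHA, 2 were higher and 1 lower in KO in each comparison. The shares of all genes called were 75.9% treated and 69.7% untreated.

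**Figure D3:**
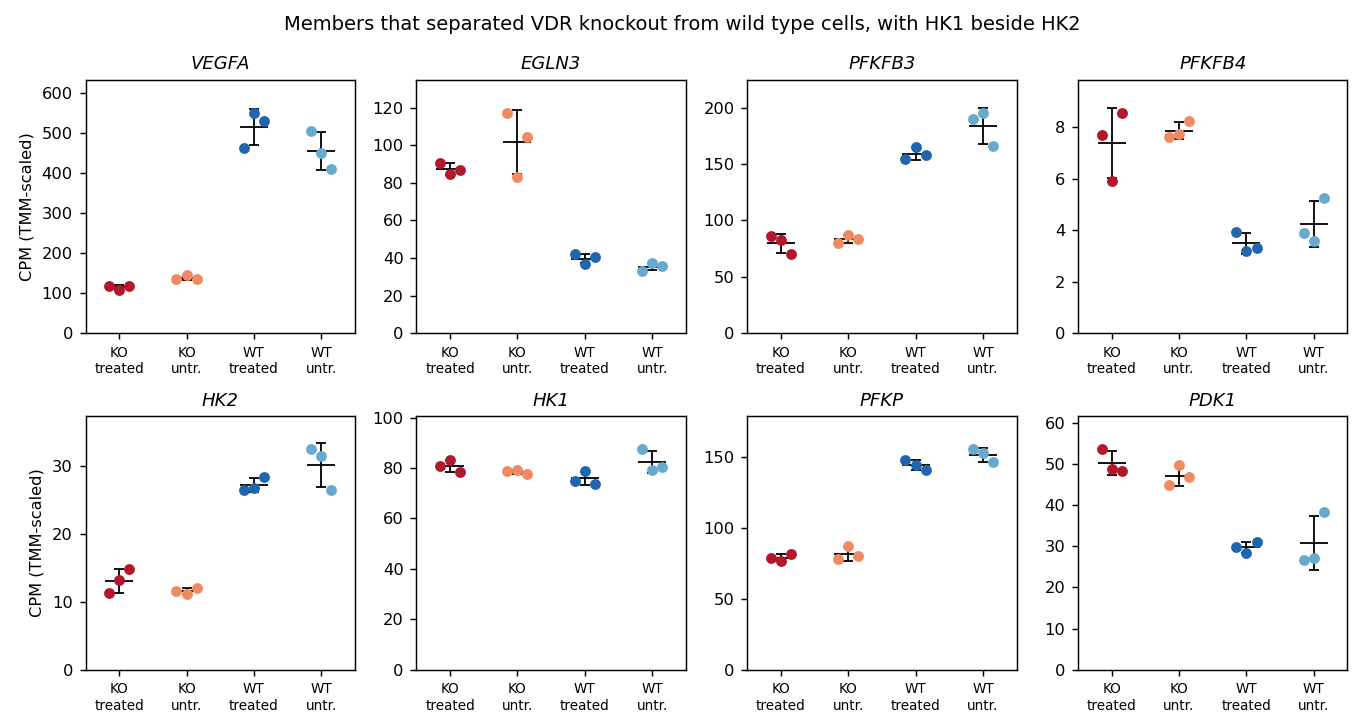
CPM of 8 genes in each library (points) with the group mean and SD (dash and bars), from left to right treated KO, untreated KO, treated WT and untreated WT. VEGFA is at 108 to 144 CPM in KO and 411 to 550 CPM in WT libraries, EGLN3 at 83.4 to 117 CPM in KO and 33.3 to 41.9 CPM in WT libraries, and HK1 is level beside them.

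The hypoxia targets outside glycolysis held the largest differences of either sign among the 29 genes. Of 10 tested, 3 were higher and 3 lower in KO treated, and 2 higher and 3 lower untreated. Among all genes the shares were 38.4% higher and 37.4% lower treated, and 35.5% and 34.2% untreated. VEGFA (chromosome 6, 43770184 to 43786487), the growth factor for blood vessels that keratinocytes secrete, was at 117, 108 and 117 CPM in treated KO and 135, 144 and 134 CPM in untreated KO, against 463, 550 and 530 CPM in treated WT and 505, 450 and 411 CPM in untreated WT libraries. It was 4.51-fold lower in KO treated (−2.17 ± 0.09, adjusted p = 5.03e-12) and 3.31-fold lower untreated (−1.73 ± 0.09, adjusted p = 7.42e-11). EGLN3 (chromosome 14, 33924231 to 34462774), a HIF prolyl hydroxylase that HIF itself induces, was at 90.8, 84.6 and 86.7 CPM in treated KO and 117, 83.4 and 104 CPM in untreated KO, against 41.9, 36.8 and 40.3 CPM in treated WT and 33.3, 37.2 and 35.6 CPM in untreated WT. It was 2.20-fold higher in KO treated (1.14 ± 0.10, adjusted p = 2.8e-08) and 2.88-fold higher untreated (1.53 ± 0.10, adjusted p = 1.72e-09). Both are classic HIF targets. The KO libraries of VEGFA were all below the WT libraries, and those of EGLN3 were all above them.

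The mitophagy receptors BNIP3 and BNIP3L also parted. BNIP3L was at 15.9, 16.4 and 13.5 CPM in treated KO and 14.3, 13.5 and 14.9 CPM in untreated KO, against 9.94, 10.6 and 9.91 CPM in treated WT and 12.9, 12.2 and 13.3 CPM in untreated WT libraries. It was higher in KO with hormone (0.59 ± 0.11, adjusted p = 8.11e-05) and was not called without (0.15 ± 0.10, adjusted p = 0.204; 0.27, adjusted p = 0.027 with library size alone). BNIP3 was lower in KO with hormone (−0.62 ± 0.19, adjusted p = 0.00768) and was not called without (−0.38 ± 0.18, adjusted p = 0.069), except when untreated WT replicate 1 was left out (−0.48, adjusted p = 0.0443). The collagen prolyl hydroxylases did likewise: P4HA1 was higher in KO with hormone (0.57 ± 0.08, adjusted p = 9.63e-06) and P4HA2 lower (−0.44 ± 0.11, adjusted p = 0.00164), and neither was called without (0.04 ± 0.08, adjusted p = 0.676, and −0.09 ± 0.11, adjusted p = 0.478). In the difference of responses given below, BNIP3L and P4HA1 were called, and BNIP3 and P4HA2 were not. Without untreated WT replicate 2, P4HA2 was called there too (−0.45, adjusted p = 0.0349).

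ANKRD37, NDRG1 and KDM3A were called without hormone and not with it (adjusted p 0.715, 0.777 and 0.916 with it). None of them was called in the difference of responses given below. Leaving out 1 library changed this for ANKRD37 (without untreated WT replicate 3, −0.99, adjusted p = 0.0341) and NDRG1 (without treated KO replicate 3, 0.82, adjusted p = 0.0436). ANKRD37 was higher in untreated KO cells (0.74 ± 0.25, adjusted p = 0.014), a call lost without untreated KO replicate 1 (adjusted p = 0.0571) or untreated WT replicate 1 (adjusted p = 0.0798). Of its exon bases, 35.2% overlap UFSP2 on the other strand. NDRG1, a stress-responsive gene linked to differentiation, was lower (−0.58 ± 0.20, adjusted p = 0.0158), lost with library size alone (−0.45, adjusted p = 0.0507) and without untreated KO replicate 1 (adjusted p = 0.0781). KDM3A, a histone demethylase, was lower by −0.20 ± 0.08 (adjusted p = 0.0436), and lost its call with library size alone (−0.08, adjusted p = 0.427), without untreated KO replicate 2 (−0.13, adjusted p = 0.198), and without untreated KO replicate 3 or untreated WT replicate 1 (adjusted p 0.0643 and 0.104). ADM was not called in either comparison (−0.06 ± 0.10, adjusted p = 0.621 treated, and 0.18 ± 0.10, adjusted p = 0.117 untreated), though with library size alone it was higher untreated (0.30, adjusted p = 0.0142).

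The HIF core motif was looked for in the 250 bases upstream of RefSeq gene starts (GRCh38.p14), as ACGTG or GCGTG on either strand. RefSeq windows were at hand for 26 of the 29 tested genes, 49 windows in all, and 28 of these (57.1%) held at least 1 match, against 15172 of 35116 windows of all genes (43.2%). The windows of these genes were richer in G and C (median 68.4%, against 58.0% for all), and a match is a description of letters, not a site of binding. Short stretches are shown for a gene higher in KO (PFKFB4), a gene lower in KO (ENO2), and 3 genes that responded to hormone (ADM, GPI and PGK1), with the matches in capitals. CACGT in PGK1 is ACGTG read on the other strand. The stretches of ADM, ENO2 and GPI lie upstream of the RefSeq start used here, but all 29 bases of each are also within an exon of the same gene in GENCODE v29. The only windows of EGLN3, P4HA2, PGAM1, PKM and SLC2A1 held 0 matches.
PFKFB4, chr3:48556953-48556981, minus strand: tgagttgggcatGCGTGgtcggaggccgg
ENO2, chr12:6914450-6914478, plus strand: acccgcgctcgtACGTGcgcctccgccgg
ADM, chr11:10304960-10304988, plus strand: gagcaggagcgcGCGTGgctgaggaaaga
GPI, chr19:34364818-34364846, plus strand: acactgcctgtaACGTGgaaggtgttcga
PGK1, chrX:78103998-78104097, plus strand: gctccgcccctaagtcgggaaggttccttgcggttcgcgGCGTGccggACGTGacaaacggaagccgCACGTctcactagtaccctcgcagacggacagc
The match is GCGTG in PFKFB4 and ADM, ACGTG in ENO2 and GPI, and both in PGK1.

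The next question was what 8 h of hormone did to these genes in WT cells. Among the called genes the change was downward: 5 of the 29 fell and 0 rose. They were ADM, GPI, PGK1, BNIP3L and PFKM. Of all genes, 24.5% were called (11.5% higher, 13.0% lower), and 17.2% of the 29. The median log2 fold change was −0.15 for these genes against −0.00 for all genes, and its median size was 0.19 for both. Without adjustment 11 of the 29 had a p below 0.05. No overlap between treated and untreated libraries was seen for 10 of the 29 genes (39.2% of all genes).

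**Figure D4:**
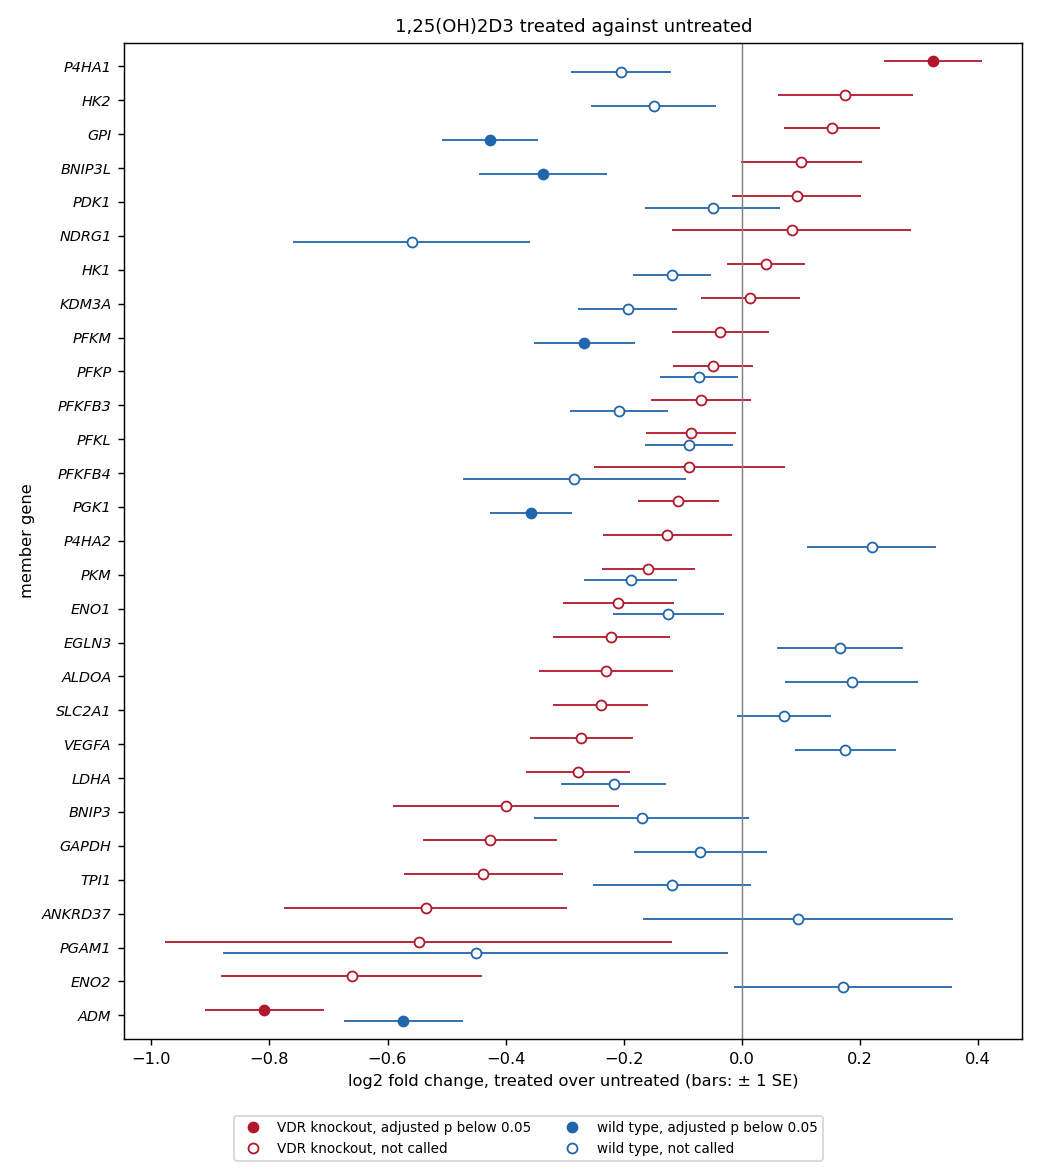
Log2 fold change, hormone-treated over untreated, of the 29 tested genes with bars of 1 SE, in KO cells (upper row of each gene) and WT cells (lower row), sorted by the KO value. Filled points have an adjusted p below 0.05. ADM is filled in both genotypes, at −0.81 in KO and −0.57 in WT cells, and P4HA1 is the filled point to the right, at 0.32 in KO cells.

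ADM (chromosome 11, 10304680 to 10307397), which encodes the vessel-widening peptide adrenomedullin and is a HIF target, had the largest called fall. It was at 26.3, 30.0 and 27.7 CPM in treated WT against 42.2, 39.8 and 42.9 CPM in untreated WT libraries. The groups did not overlap, and ADM was 1.49-fold lower (−0.57 ± 0.10, adjusted p = 0.000872).

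GPI (chromosome 19, 34359480 to 34402413), the isomerase that makes fructose 6-phosphate, was at 200, 192 and 192 CPM in treated WT against 263, 263 and 258 CPM in untreated WT, a fall of −0.43 ± 0.08 (adjusted p = 0.0015). PGK1, the kinase that yields the first ATP of the pathway, was at 79.7, 85.6 and 80.4 CPM in treated WT against 114, 103 and 98.3 CPM in untreated WT (−0.36 ± 0.07, adjusted p = 0.00172). Treated and untreated libraries did not overlap for either gene. ADM, GPI and PGK1 kept their calls under all 13 alternatives run.

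The calls of BNIP3L and PFKM were near the threshold. BNIP3L was at 9.94, 10.6 and 9.91 CPM in treated WT against 12.9, 12.2 and 13.3 CPM in untreated WT (−0.34 ± 0.11, adjusted p = 0.0318), and PFKM at 37.7, 34.3 and 33.7 CPM against 40.8, 40.7 and 45.6 CPM (−0.27 ± 0.09, adjusted p = 0.0314). The treated libraries were lower throughout. BNIP3L lost its call without treated WT replicate 1, 2 or 3 or untreated WT replicate 1 or 3 (adjusted p 0.0509 to 0.105), and PFKM lost its call without treated WT replicate 2 or 3 or untreated WT replicate 3 (adjusted p 0.095 to 0.135). With the WT groups alone neither was called (adjusted p = 0.0568 for BNIP3L and 0.0724 for PFKM). BNIP3L was not called with DESeq2 either (adjusted p = 0.0589). Without untreated WT replicate 3, 9 genes fell and 0 rose: ADM, GPI and PGK1 again, and PKM, ENO1, GAPDH, TPI1, LDHA and PFKFB3. Without treated WT replicate 2 or 3, 3 genes fell. Without untreated WT replicate 2, P4HA2 was called higher (0.32, adjusted p = 0.0462), and P4HA1 (−0.28, adjusted p = 0.0264) and NDRG1 (−0.63, adjusted p = 0.0476) lower. VEGFA was called higher without untreated WT replicate 1 (0.27, adjusted p = 0.0427).

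In KO cells the hormone was followed by fewer calls over all genes, 2.55% (0.913% higher, 1.64% lower). How many fewer depended on the fit. With the compared groups alone, 833 genes were higher and 942 lower in KO cells, against 1092 and 1126 in WT cells. Of the 29 genes, 1 fell, ADM, and 1 rose, P4HA1. ADM was at 30.1, 22.7 and 27.8 CPM in treated KO against 44.5, 51.8 and 45.2 CPM in untreated KO libraries, with no overlap. It was 1.75-fold lower (−0.81 ± 0.10, adjusted p = 0.00169), so the fall of ADM was called in cells labelled as VDR knockout too, and the difference of its responses, KO minus WT, was −0.24 ± 0.14 (adjusted p = 0.238).

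P4HA1, a subunit of the enzyme that hydroxylates collagen, was at 91.4, 97.4 and 88.9 CPM in treated KO against 66.5, 78.0 and 77.5 CPM in untreated KO (0.32 ± 0.08, adjusted p = 0.0482). The groups did not overlap, but the call was lost without any 1 of the 6 KO libraries (adjusted p 0.0593 to 0.236). GAPDH (−0.43 ± 0.11, adjusted p = 0.054) and TPI1 (−0.44 ± 0.13, adjusted p = 0.0907) missed the threshold in edgeR. Both were called lower with DESeq2 (adjusted p 0.0139 and 0.0273) and with the KO groups alone (adjusted p 0.00193 and 0.00134), and GAPDH also with library size alone (adjusted p = 0.0409) and without a filter (adjusted p = 0.0496). LDHA was likewise called lower with DESeq2 (adjusted p = 0.044) and with the KO groups alone (adjusted p = 0.00895). With the KO groups alone, ENO1, VEGFA, SLC2A1 and ALDOA were called lower too (adjusted p 0.0146 to 0.0463). EGLN3 was called lower without untreated KO replicate 2 (adjusted p = 0.0485). In the edgeR test of all groups, 11 of the 29 genes were at an unadjusted p below 0.05 and 14 had no overlap between groups (31.6% of all genes). The median log2 fold change was −0.13 for the 29 genes and −0.00 for all genes.

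**Figure D5:**
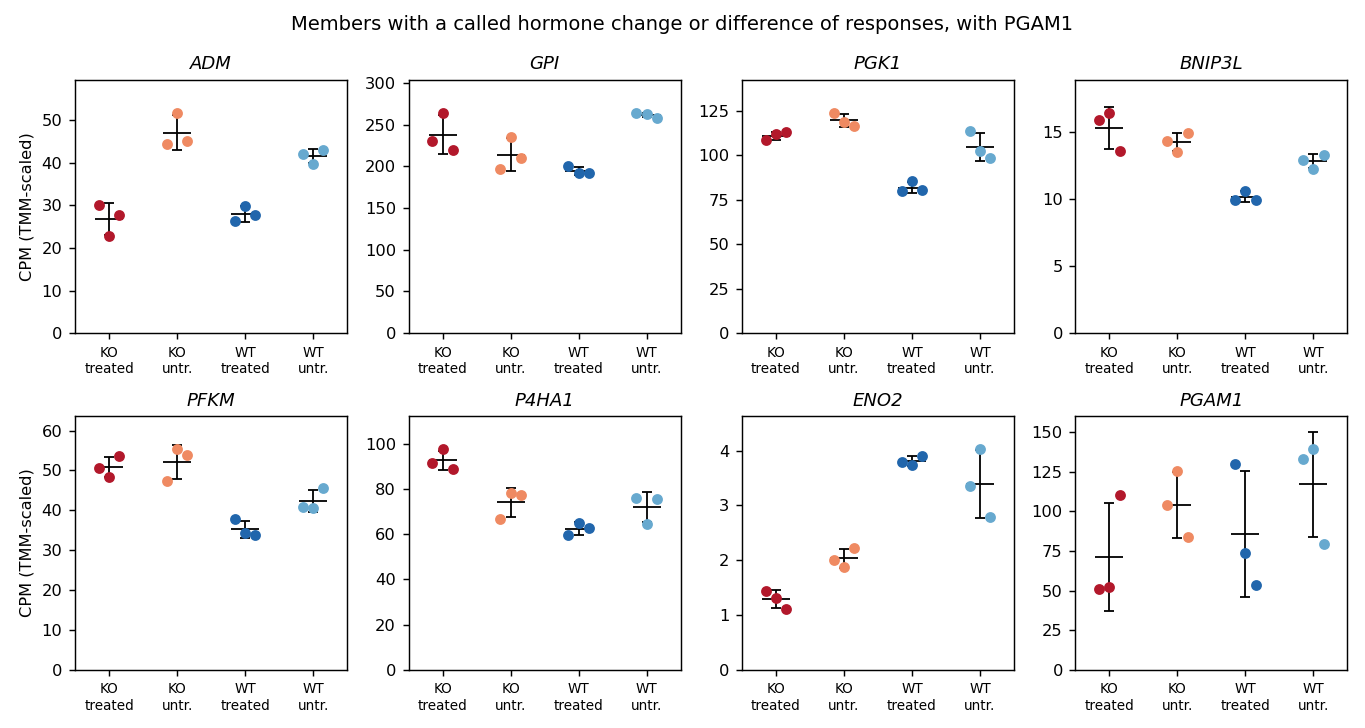
CPM of 8 genes in each library (points) with the group mean and SD (dash and bars), from left to right treated KO, untreated KO, treated WT and untreated WT. ADM is at 22.7 to 30.1 CPM in treated and 39.8 to 51.8 CPM in untreated libraries of either genotype, while GPI is at 192 to 200 CPM in treated WT and 258 to 263 CPM in untreated WT libraries, and PGAM1 spreads widely in each group.

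The last comparison asked whether the response to hormone differed between KO and WT cells, as the response in KO minus that in WT. It was called for 5 of the 29 genes, 3 higher (GPI, P4HA1 and BNIP3L) and 2 lower (ENO2 and VEGFA), where 26.3% of all genes were called (13.8% higher, 12.5% lower). GPI had the smallest adjusted p of them. It was at 230, 264 and 220 CPM in treated and 196, 236 and 210 CPM in untreated KO libraries, whose ranges overlap (0.15 ± 0.08, adjusted p = 0.285), while it fell in WT cells. The difference was 0.58 ± 0.12 (adjusted p = 0.00181). GPI was accordingly lower in untreated KO than in untreated WT cells (−0.29 ± 0.08, adjusted p = 0.00455) and higher in treated KO than in treated WT cells (0.29 ± 0.08, adjusted p = 0.00384), and scaling by library size alone ended the untreated call (−0.17, adjusted p = 0.0852).

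P4HA1 was at 59.6, 65.1 and 62.6 CPM in treated WT against 75.8, 64.3 and 75.6 CPM in untreated WT (−0.20 ± 0.08, adjusted p = 0.089), and the difference from the rise in KO was 0.53 ± 0.12 (adjusted p = 0.00411). VEGFA had changes of −0.27 ± 0.09 in KO (adjusted p = 0.0944) and 0.18 ± 0.09 in WT cells (adjusted p = 0.147), neither called, and a difference of −0.45 ± 0.12 (adjusted p = 0.0134). The differences of GPI, P4HA1 and VEGFA kept their calls under all 18 alternatives run.

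BNIP3L (0.44 ± 0.15, adjusted p = 0.039) and ENO2 (−0.83 ± 0.29, adjusted p = 0.0422) were near the threshold. Neither was called with DESeq2 (adjusted p = 0.0645 and 0.116), nor was BNIP3L without a filter (adjusted p = 0.0502). Leaving out any 1 of 9 of the 12 libraries ended the call of BNIP3L (adjusted p 0.052 to 0.102; the exceptions were untreated KO replicate 3, treated KO replicate 3 and untreated WT replicate 2), and 9 libraries likewise for ENO2 (adjusted p 0.0561 to 0.097; the exceptions were untreated KO replicate 2, treated KO replicate 1 and untreated WT replicate 2). SLC2A1 (−0.31 ± 0.11, adjusted p = 0.0526), EGLN3 (−0.39 ± 0.14, adjusted p = 0.058) and ALDOA (−0.42 ± 0.16, adjusted p = 0.0651) missed the threshold. Each was called with library size alone (adjusted p 0.0389, 0.0472 and 0.0435). SLC2A1 was also called without a filter (adjusted p = 0.0471), with the replicate block (adjusted p = 0.0496), and without untreated KO replicate 3, any 1 untreated WT replicate or treated WT replicate 2 (adjusted p 0.028 to 0.0497). EGLN3 was called without untreated KO replicate 2, untreated WT replicate 2 or treated WT replicate 2 (adjusted p 0.00633 to 0.0485). ALDOA was called without any 1 untreated WT replicate (adjusted p 0.0139 to 0.0403), at −0.26 without replicate 3. PGK1 was called without untreated WT replicate 3 (0.28, adjusted p = 0.0208).

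Other genes of these pathways were taken as lists, whose counts stand beside the shares of all genes: between genotypes 38.4% higher and 37.4% lower treated, and 35.5% and 34.2% untreated. Of 18 tested genes of the HIF system, 8 were higher and 3 lower in untreated KO than in untreated WT cells, and 10 were higher and 8 lower in treated KO than in treated WT cells. HIF1A, the oxygen-regulated subunit, was at 74.6, 69.2 and 69.3 CPM in treated KO and 79.7, 76.4 and 80.7 CPM in untreated KO, against 57.6, 54.7 and 56.5 CPM in treated WT and 48.5, 54.4 and 53.0 CPM in untreated WT libraries. The KO libraries were all higher, by 0.34 ± 0.07 treated (adjusted p = 0.00034) and 0.60 ± 0.07 untreated (adjusted p = 8.56e-07). ARNT, the constant partner of HIF alpha, was 2.10-fold higher in KO treated (1.07 ± 0.10, adjusted p = 3.89e-08) and 1.81-fold higher untreated (0.86 ± 0.10, adjusted p = 8.45e-07). EPAS1, which encodes HIF-2 alpha, was higher by 0.33 ± 0.10 (adjusted p = 0.00599) treated and 0.29 ± 0.10 (adjusted p = 0.015) untreated. RNA levels say nothing of HIF protein, which is set mainly by its breakdown.

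VHL, which marks hydroxylated HIF alpha for breakdown, was lower in treated KO than in treated WT cells (−0.35 ± 0.09, adjusted p = 0.00166) and higher in untreated KO than in untreated WT cells (0.28 ± 0.09, adjusted p = 0.00956). Hormone raised VHL in WT cells (0.35 ± 0.09, adjusted p = 0.00925), and the response in KO minus that in WT was −0.63 ± 0.12 (adjusted p = 0.00176). With hormone, 3 of the 18 genes of the HIF system rose and 1 fell in WT cells (11.5% and 13.0% of all genes). Among them OS9 (0.55 ± 0.09, adjusted p = 0.000368) and EP300 (0.46 ± 0.07, adjusted p = 0.000347) rose. CITED2, which competes with HIF for EP300, fell (−0.44 ± 0.15, adjusted p = 0.0439). In KO cells 0 of the 18 were called, where only 2.55% of all genes were called. HIF1A (0.12 ± 0.07, adjusted p = 0.248), ARNT (−0.01 ± 0.10, adjusted p = 0.949) and EPAS1 (−0.13 ± 0.10, adjusted p = 0.354) were not called with hormone in WT cells.

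Among 35 other hypoxia targets tested, 8 were higher and 18 lower in KO with hormone, and 10 were higher and 18 lower without (of all genes, 38.4% and 37.4% with, and 35.5% and 34.2% without). WSB1 was higher untreated (1.74 ± 0.10, adjusted p = 2.52e-10). With hormone in KO cells 3 of the 35 fell (1.64% of all genes), namely DDIT4, an inhibitor of mTORC1 (−0.60 ± 0.10, adjusted p = 0.00759), the repressor BHLHE40 (−0.59 ± 0.12, adjusted p = 0.0227) and EFNA1 (−0.29 ± 0.06, adjusted p = 0.0301), and 0 rose (0.913% of all genes). In WT cells 7 of the 35 rose and 3 fell (11.5% and 13.0% of all genes), with FUT11 (0.78 ± 0.11, adjusted p = 0.000179) and IGFBP3, a binder of insulin-like growth factors (0.69 ± 0.13, adjusted p = 0.00193), among those that rose.

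The counts of the next lists stand beside the same shares of all genes called, 75.9% between treated genotypes, 69.7% between untreated ones and 24.5% with hormone in WT cells. Of 13 other glycolytic enzymes, 6 were higher and 3 lower in KO treated, and 6 higher and 4 lower untreated. PCK2, the mitochondrial enzyme that makes phosphoenolpyruvate, was lower (−2.14 ± 0.11, adjusted p = 4.06e-11 treated, and −1.70 ± 0.11, adjusted p = 6.91e-10 untreated), and GPD2, of the glycerol phosphate shuttle, was higher (0.83 ± 0.07, adjusted p = 1.42e-08 treated, and 0.53 ± 0.07, adjusted p = 4.04e-06 untreated). With hormone in WT cells 1 of the 13 rose, ENO3 (0.58 ± 0.13, adjusted p = 0.0039), and 2 fell, LDHB (−0.28 ± 0.08, adjusted p = 0.0192) and GPD2 (−0.21 ± 0.07, adjusted p = 0.0407). Of 17 genes of pyruvate and lactate handling, 11 were higher and 4 lower in KO treated, and 11 higher and 3 lower untreated. BSG, the chaperone of lactate carriers, was 4.74-fold lower in KO treated (−2.25 ± 0.24, adjusted p = 1.71e-05) and lower untreated (−0.96 ± 0.23, adjusted p = 0.00476). SLC16A3 was lower in KO treated (−1.11 ± 0.17, adjusted p = 2.96e-05), and DLD was higher (1.05 ± 0.10, adjusted p = 8.37e-08). Untreated, PDK3 (0.90 ± 0.21, adjusted p = 0.00119) and PDK2 (0.90 ± 0.15, adjusted p = 3.68e-05) were higher in KO. With hormone in WT cells BSG was higher (0.73 ± 0.23, adjusted p = 0.0489), and its response in KO minus that in WT was −1.28 ± 0.33 (adjusted p = 0.0205). Of 19 genes of side branches, 7 were higher and 7 lower treated and 4 higher and 10 lower untreated. Of 6 other glucose transporters, 3 were higher and 1 lower treated, and 4 higher and 0 lower untreated.

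The authors' deposited table of terms for genes lower with hormone in WT cells held the term cellular response to oxygen levels, with 27 of 840 listed genes (adjusted p = 0.0450), PGK1 and NDRG1 among them. The authors' deposited table for KO cells held response to oxygen levels among genes lower with hormone, with 17 of 306 listed genes (adjusted p = 0.0369), ADM among them. Between treated genotypes, their terms for genes lower in KO held carbohydrate biosynthetic process (82 of 4413 genes, adjusted p = 0.0282), with SLC2A1, ALDOA, ALDOC, TPI1, GAPDH and ENO2. Those for genes higher in KO held a term for transcription in response to hypoxia (41 of 3915, adjusted p = 0.0184), with EGLN3. Untreated, response to carbohydrate was held among genes lower in KO (61 of 3405, adjusted p = 0.0438), with PFKL. NDRG1 missed the threshold here in WT cells (−0.56 ± 0.20, adjusted p = 0.0517), and was called with DESeq2 size factors (adjusted p = 0.0494), with the WT groups alone (adjusted p = 0.0346) and without untreated WT replicate 2 (adjusted p = 0.0476).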

How the data were processed

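Libraries of total RNA from 12 HaCaT samples, 3 in each of 4 groups, were grouped as the labels give them. The authors deposited raw read counts for 16271 genes under human Ensembl IDs and symbols. The deposited CPM table equals each count divided by its library total, in 1e6, to within 0.005. In the authors' deposited enrichment tables each ontology term has p-values, raw and adjusted, and, among other values, a tally of listed genes. Of these, 7 were used and 5 left out. Reads were aligned with BWA 0.5.9 to mm9, a mouse build, per the submitters' processing notes. Since the IDs are human, the annotation and the counting tool remain unknown here. GENCODE v29 held 15524 of the IDs and lacked 747.

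Counts of all 12 libraries were fitted in edgeR 4.0.16 (R 4.3.3; TMM factors 0.950 to 1.057, common dispersion 0.0117) with the robust quasi-likelihood F test. The filterByExpr filter set aside 1595 genes. Adjustment was by Benjamini-Hochberg over 14676 genes in each of 5 comparisons, with calls below 0.05. An SE is the size of the log2 fold change over the square root of F. Counts were also simulated with the same dispersion for every gene, and changes were put only into some well counted genes. No other difference between groups was put in. On these counts the test recovered 84% of 1.5-fold and 100% of 2-fold changes with hormone in WT cells. Between untreated genotypes it recovered 73% and 100%, and for the difference of responses 27% and 90%. These shares need not hold for genes with few counts or a wide spread, such as ENO2 and PGAM1.

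The members and lists were chosen with earlier results of these data known. All 32 members were looked up. Called members were named, with every library's value for the 6 of largest log2 fold change, the 3 of smallest adjusted p and those called in the difference. HIF1A, EPAS1, VHL and ARNT were named between genotypes and with hormone in WT cells, and from each list at most the 3 called genes of largest log2 fold change, some of which are left out here. Alternatives were other scalings, other filters, DESeq2 1.42.0, the compared groups alone, a replicate block and leaving out each library. No intervals are printed beside the SEs, which rest on the spread among the libraries.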

Additional observations from a re-analysis of the deposited data

Results flagged for a closer look

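The response to hormone differed between the genotypes for 5 genes, by the test of the difference itself. It was 0.58 (log2, KO minus WT) for GPI, with 0.15 in KO and −0.43 in WT cells, and 0.53 for P4HA1, with 0.32 in KO and −0.20 in WT cells. It was −0.45 for VEGFA, with −0.27 in KO and 0.18 in WT cells. For BNIP3L it was 0.44, with 0.10 in KO and −0.34 in WT cells, and for ENO2 it was −0.83, with −0.66 in KO and 0.17 in WT cells. ENO2 stood at 1.11 to 4.02 CPM, the lowest level of these 5 genes.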

How the results depend on the processing

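No called gene of the 29 changed direction under any alternative run. In KO cells the count of members higher with hormone was 0 with library size alone and with the replicate block, against 1, and the count lower was 2 with library size alone and without a filter, 4 with DESeq2 and 8 with the compared groups alone, against 1. For the difference of responses, members lower were 5 with library size alone and 1 with DESeq2, against 2. Leaving out 1 library gave 0 to 1 higher and 3 to 9 lower with hormone in WT, 0 higher and 1 to 2 lower in KO, 4 to 6 higher and 11 to 13 lower between untreated genotypes, 8 higher and 12 to 14 lower between treated ones, and 2 to 4 higher and 1 to 6 lower for the difference. Over all genes, hormone in KO gave 134 higher and 240 lower, against 411 and 500 with DESeq2, 833 and 942 with the compared groups alone, 37 and 106 with the block, and 0 to 66 and 8 to 212 without 1 library. Library size alone gave 392 lower. Hormone in WT gave 1688 higher and 1914 lower over all genes, against 1092 and 1126 with the compared groups alone, and 1010 to 1825 and 1102 to 1970 without 1 library. The cause was not tested. Same-numbered replicates did not pair: 1 of 18 pairs correlated above 0.1 and 2 of 12 libraries correlated best with their own number, over deviations from the group means. With the block, P4HA1 with hormone in KO (adjusted p = 0.0782), TPI1 between treated genotypes (0.0526), and BNIP3L (0.0582) and ENO2 (0.0583) in the difference were no longer called. Depth limits ALDOC, ENO2, BNIP3 and ANKRD37 most, the genes with the fewest counts.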
